A study of Mus musculus with 4 samples.

Results

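Type 1 conventional dendritic cells (cDC1) were examined among CD45+ cells of subcutaneous KPC pancreatic tumors from mice that were left untreated or received the STING agonist ADU-S100, an agonist antibody to the lymphotoxin beta receptor (anti-LTβR), or both. A cell was counted as cDC1 when at least 2 of Xcr1, Clec9a, Tlr3 and Flt3 had a UMI (a molecule counted once by its molecular identifier), with Xcr1 or Clec9a among them. Fewer than 2 of the maturation genes Fscn1, Ccl22 and Ccr7 could be detected, and Cd3e (T cells), Csf3r (neutrophils) and C1qa (macrophages) had to be at 0 UMIs. Of 51841 barcodes with 300 to 5000 genes and at most 6% mitochondrial UMIs, 407 met this rule. They comprised 146 of 7776 barcodes in the untreated library, 62 of 14326 in the ADU-S100 library, 105 of 14041 in the anti-LTβR library and 94 of 15698 in the combination library. Values of 4 libraries or groups are always given in that order.

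The single-cell RNA-seq series asked how the immune cells of these tumors differ after STING activation, LTβR activation or their combination. Host mice were male C57BL/6NHsd animals of 8 to 10 weeks, and the injected cells were a line from KPC tumors, in which Pdx1-Cre switches on mutant alleles in the pancreas, so the hosts themselves carried no engineered allele and all 4 groups carried the same tumor line. Treatment began at a tumor volume of about 100 mm3, about 10 days after injection: tumors got a single 2 µg dose of ADU-S100 on day 0, mice got 4 intraperitoneal doses of 100 µg of the anti-LTβR antibody 4H8, spaced 3 to 4 days apart and ending on day 10, or both agents were given. Tumors were resected on day 14, cells of 10 tumors of a group were pooled, live CD45+ cells were sorted, and 1 library was made for each group. The flank site, the single tumor line and the pooling limit each group as a model, since no value is given for a single mouse.

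These 4 libraries hold 1 per group, so no treatment had a replicate among them (a second experiment named in the study's methods was not analysed here), and cells of 1 library are not replicates, so no test was made. The 95% intervals given here cover counting error only, not the spread between mice, tumors or cells. The barcodes within the limits had median depths of 4653, 3235, 3773 and 2235 UMIs in the 4 libraries. cDC1 were deeper than the average barcode, with medians of 10176.5, 12816, 8664 and 6139 UMIs and 3318.5, 3692, 2932 and 2426 genes, so those of the combination library were the shallowest. Their median mitochondrial share lay between 1.35% and 1.46% in all 4 libraries. No barcode sequence occurred among the cDC1 of more than 1 library, whereas 32 to 77 sequences were shared by each pair of libraries among all barcodes within the limits.

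cDC1 are the dendritic cell subset that depends on the transcription factors IRF8 and BATF3. They take up dead-cell material through the receptor CLEC9A, sense double-stranded RNA through TLR3, follow XCL1 from NK cells and CD8+ T cells through the receptor XCR1, and load exogenous antigen onto MHC class I for CD8+ T cells. FLT3 is the receptor for the growth factor that sustains conventional dendritic cells. In tumors, cDC1 are known as a source of IL-12 and CXCL9, and on activation they take on a CCR7+ migratory state that they share with other dendritic cells. STING is the sensor of cyclic dinucleotides upstream of type I interferon and NF-κB, and LTβR acts through canonical and noncanonical NF-κB, the latter through NIK, p100/p52 and RELB.

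The cells were chosen by the detection of 4 marker genes, so the levels of those genes are a description. Xcr1 (the XCL1 receptor gene) stood at 532, 281, 435 and 489 CPM (UMIs of a gene per 1000000 UMIs summed over the cDC1 of a library), Clec9a at 570.2, 425, 499.8 and 520.4 CPM, Tlr3 at 288, 224, 222 and 197 CPM and Flt3 at 315, 393, 441 and 394 CPM. A cDC1 held a median of 2, 1, 3 and 2 Xcr1 UMIs and at most 38, 23, 31 and 18. At the edge of the rule, 48, 27, 35 and 27 cells had exactly 2 of the 4 markers, while 46, 47, 83 and 51 barcodes outside had Xcr1 or Clec9a alone. Another 72, 53, 45 and 37 barcodes met the marker criteria but had a UMI of Cd3e, Csf3r or C1qa, most often C1qa (65, 38, 38 and 33). A further 12, 12, 12 and 7 barcodes were left out because at least 2 maturation genes were detected.

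Genes outside the rule were set against the cDC1 label, which the identity genes matched and the pDC genes did not. The 24 other cDC1 identity genes, summed, reached 13250.1, 11152, 13522 and 12829 CPM, against 2214, 2162, 2083 and 2021 CPM in all other barcodes, and 22 or 23 of the 24 were above the other barcodes in each library. Irf8 (lineage transcription factor) stood at 1693, 1556, 1952 and 1641 CPM, Batf3 (its partner) at 138, 134, 171 and 148 CPM, Wdfy4 (required for cross-presentation of cell-bound antigen) at 2543, 1890.1, 2934 and 2669 CPM and Naaa (a lysosomal amidase typical of cDC1) at 1671, 1479, 1860.3 and 1599.7 CPM. The 7 pDC genes summed to 1010.2, 1792, 1270.3 and 292 CPM, against 548, 415, 474 and 467 CPM in the other barcodes, and all 7 were above the other barcodes in each library but the combination. The 9 cDC2 genes summed to 319, 399, 341 and 264 CPM, against 1218, 1175, 1297 and 1227 CPM, with 3, 5, 2 and 3 of them above the other barcodes, and the 12 genes of mature dendritic cells to 371, 508, 299 and 440.4 CPM, against 1204, 1082, 1141 and 1119.6 CPM, with 1, 1, 0 and 1 above. T cell, NK cell, carcinoma and mast cell genes were low: the 9 T cell markers summed to between 3.19 and 6.92 CPM with 4 to 7 of them at 0, the 6 NK cell markers to between 5.10 and 33.2 CPM, the 6 carcinoma markers to between 1.91 and 21.7 CPM, and 0 of 5 mast cell markers were detected. The 12 macrophage and monocyte markers summed to 298, 869.6, 493 and 302 CPM, with C1qa at 0 by the rule, against 14504, 13497, 11564 and 12686 CPM in the other barcodes, so the ADU-S100 cDC1 held the most of them. The 7 neutrophil markers summed to 17.2, 155, 13.04 and 18.3 CPM, and 99 of the 112 neutrophil UMIs of the ADU-S100 cDC1 lay in 1 cell, without which the sum was 18.3 CPM. The 10 B and plasma cell markers summed to 160.1, 152, 338 and 379 CPM and were highest in the libraries where the other barcodes also had most, at 1857, 1710.2, 11078 and 16554 CPM.

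Cells that should lack the markers also held a few of their UMIs. Among 1140, 552, 1616 and 1094 barcodes with a Cd3e UMI, at median depths of 4224.5, 4491, 3490 and 2273 UMIs, Xcr1 was detected in 0.263%, 0%, 0.619% and 0%, where the counts of 0 allow up to 0.543% and 0.274%, and Clec9a in 0.439%, 0.725%, 0.371% and 0.731%. In the 1808, 7033, 2999 and 2877 barcodes with a Csf3r UMI, at median depths of 6507.5, 2969, 4384 and 2281 UMIs, Xcr1 was found in 0.830%, 0.227%, 0.5002% and 0.209% and Clec9a in 3.60%, 1.38%, 2.03% and 1.98%. Tlr3 was the most often detected of the markers in these Csf3r barcodes, in 10.3%, 3.11%, 4.73% and 3.27%, with Flt3 in 2.93%, 1.45%, 2.77% and 1.49%. In the barcodes with Cd3e, Tlr3 was found in 1.32%, 1.45%, 1.05% and 0.640%. Among the cDC1, Xcr1 was detected in 63.0%, 56.5%, 65.7% and 73.4% and Tlr3 in 62.3%, 50%, 62.9% and 57.4%.

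The rule gathered cells of more than 1 kind. Xcr1 or Tlr3 was detected in 105 of 146, 38 of 62, 77 of 105 and 77 of 94 cDC1, or 71.9%, 61.3%, 73.3% and 81.9%. The other 41, 24, 28 and 17 cells entered through Clec9a and Flt3 alone, and 16, 13, 16 and 1 of these also had Siglech, the sialic acid receptor of plasmacytoid dendritic cells (pDC). In those Siglech+ cells the 7 pDC genes summed to 13605, 11500 and 11837 CPM in the untreated, ADU-S100 and anti-LTβR libraries, against 129, 89.5 and 107 CPM in the cells with Xcr1 or Tlr3. Naaa stood there at 0, 30.7 and 23.5 CPM, against 1954, 1858 and 2135 CPM in the cells with Xcr1 or Tlr3, and the class II gene H2-Aa was likewise lower (1870.3, 1014 and 1094 against 7432, 8775 and 7675 CPM). The 25, 11, 12 and 16 Clec9a and Flt3 cells without Siglech also differed from the cells with Xcr1 or Tlr3. Their identity genes summed to 5750, 6692, 8536 and 8992 against 15113, 13577, 15027 and 13434.5 CPM. Irf8 stood at 345, 672, 783 and 796 against 1834, 1720, 1967 and 1770 CPM. Their cDC2 genes summed to 1127, 582, 1014 and 705 against 135, 242, 219 and 200 CPM. The Siglech+ cells described here made up 11.0%, 21.0%, 15.2% and 1.06% of the cells the rule selected. Because this share was far lower in the combination library, list medians against untreated are also given for the cells with Xcr1 or Tlr3 alone (the subset). So are the ratios of a number of genes that turned there or crossed the 2-fold limit. A gene given without a subset ratio did not necessarily hold there. The subset was set after the values had been seen. The minimum of 100 UMIs used below for ratios is not applied in this subset, but the UMIs of the pair are given for a gene that had fewer there, and on 19 UMIs or fewer no ratio is given. Unless stated otherwise, a list's median in the subset is over the genes measured in all cDC1.

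**Figure D1:**
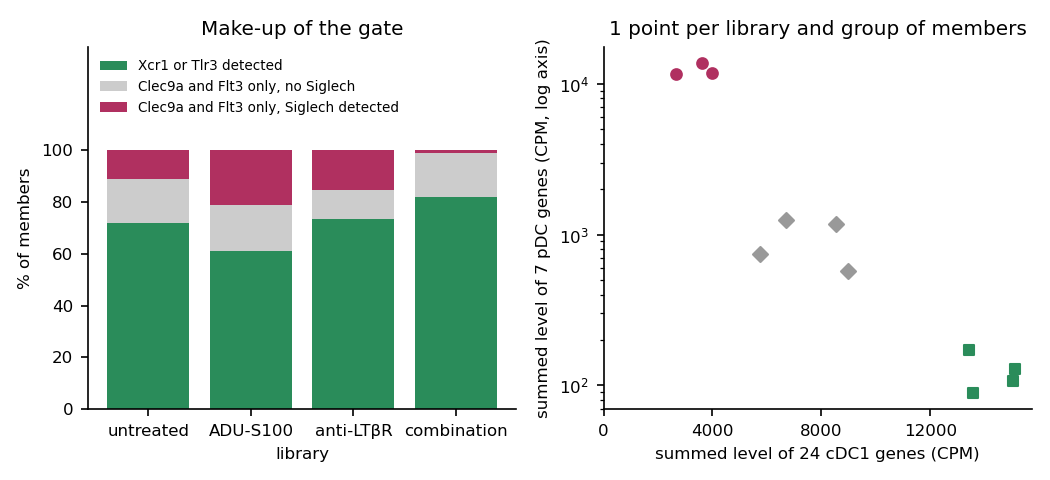
Left, percentage of the cDC1 of each library with Xcr1 or Tlr3 detected and of those that entered through Clec9a and Flt3 only, without or with Siglech (stacked to 100%). Right, summed CPM of 24 cDC1 identity genes against summed CPM of 7 pDC genes (log axis), 1 point per library and group of cells, leaving out groups under 5 cells: the Siglech+ cells, at 11500 to 13605 CPM of pDC genes and 2673 to 4001 CPM of identity genes, lie apart from the cells with Xcr1 or Tlr3.

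cDC1 were a smaller share of the CD45+ barcodes in each treated library than in the untreated one. The share was 1.88% (Clopper-Pearson 95% interval 1.59 to 2.20) untreated, 0.433% (0.332 to 0.554) after ADU-S100, 0.748% (0.612 to 0.905) after anti-LTβR and 0.599% (0.484 to 0.732) after the combination. None of the 3 treated intervals overlapped the untreated one, while that of the combination overlapped both the ADU-S100 and the anti-LTβR interval. Relative to the shared untreated library the 3 shares stood at 0.231 (95% interval 0.171 to 0.310), 0.398 (0.310 to 0.511) and 0.319 (0.246 to 0.413). The combination stood at 1.38 (1.00 to 1.91) times the ADU-S100 share and 0.801 (0.607 to 1.06) times the anti-LTβR share. Restricted to cells with Xcr1 or Tlr3, the treated shares stood, as multiples of the untreated one, at 0.196 (0.136 to 0.284), 0.406 (0.303 to 0.544) and 0.363 (0.271 to 0.487), and the combination stood at 1.85 (1.25 to 2.73) times ADU-S100.

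Shares depend on what else was in the sort and on depth. Csf3r, the neutrophil growth factor receptor gene, was found in 7033 barcodes after ADU-S100 against 1808 to 2999 in the other libraries. When barcodes with Csf3r were left out of the denominator, the cDC1 shares were 2.45%, 0.850%, 0.951% and 0.733%, and the ratio of ADU-S100 to untreated was 0.348 in place of 0.231. The combination then stood below ADU-S100, at 0.862 times its share, so the order of those 2 libraries turned with the denominator. After each barcode was thinned to 2000 UMIs, which left out 1635, 4120, 3583 and 7128 shallower barcodes and among them 3, 3, 6 and 7 cDC1, the shares were 1.51%, 0.353%, 0.679% and 0.793%, and the combination to untreated ratio was 0.524 in place of 0.319. Fewer cDC1 and more of other CD45+ cells cannot be told apart from shares.

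**Figure D2:**
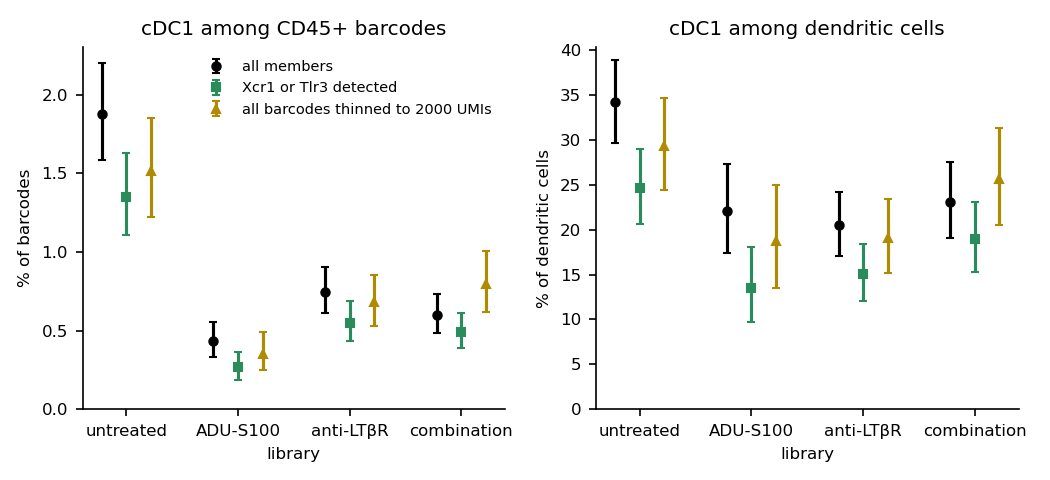
Left, cDC1 as a percentage of CD45+ barcodes within the limits. Right, cDC1 as a percentage of all dendritic cells found by rules. Points are the 4 libraries for all cDC1, for those with Xcr1 or Tlr3 and after thinning to 2000 UMIs, and bars are 95% Clopper-Pearson intervals covering counting error only; the untreated library is highest in each series of points (1.88% and 34.2% for all cDC1).

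Among all dendritic cells, cDC1 made up 34.2% (29.7 to 38.9) of 427 cells untreated, 22.1% (17.4 to 27.4) of 281 after ADU-S100, 20.5% (17.1 to 24.2) of 513 after anti-LTβR and 23.1% (19.1 to 27.5) of 407 after the combination. The untreated interval lay above the other three, which overlapped. With Xcr1 or Tlr3 required, the values were 24.6%, 13.5%, 15.01% and 18.9%, and after thinning they were 29.3%, 18.8%, 19.1% and 25.7%, and after either change the untreated interval overlapped that of the combination (20.6 to 28.96 against 15.2 to 23.1, and 24.4 to 34.7 against 20.5 to 31.4), and after thinning it also overlapped that of ADU-S100. For comparison, type 2 conventional dendritic cells (cDC2) stood at 0.426, 1.18 and 0.762 times their untreated share of CD45+ barcodes in the 3 treated libraries, CCR7+ mature dendritic cells at 0.406, 0.637 and 0.467 times, and pDC at 0.505, 0.516 and 0.342 times. Mature dendritic cells that still carried cDC1 markers numbered 12, 12, 12 and 7.

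Expression was compared gene by gene on summed UMIs, for genes that reached 100 UMIs in the pair of libraries, and a gene was called when its log2 ratio of CPM (0.5 UMI added to each sum) was at least 1 in size, a 2-fold difference. ADU-S100 over untreated had 3997 measured genes, of which 56 (1.4%) were at least 2-fold higher and 46 (1.15%) at least 2-fold lower. Anti-LTβR over untreated had 4258, of which 39 (0.916%) were higher and 14 (0.329%) lower. The combination over untreated had 3852, of which 18 (0.467%) were higher and 55 (1.43%) lower. These 3 comparisons share the untreated cells. The combination over ADU-S100 had 2526 measured genes, with 28 (1.11%) higher and 63 (2.49%) lower, and the combination over anti-LTβR had 2915, with 8 (0.274%) higher and 44 (1.51%) lower. The median log2 ratio over all measured genes lay between -0.01 and 0.01 in all 5. When each cell's CPM was averaged in place of summing UMIs, ADU-S100 over untreated gave 62 higher and 104 lower genes, and anti-LTβR over untreated 32 higher and 44 lower, so the balance of directions depended on that choice. With Xcr1 or Tlr3 required, the combination had 12 genes at least 2-fold lower than untreated in place of 55.

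**Figure D3:**
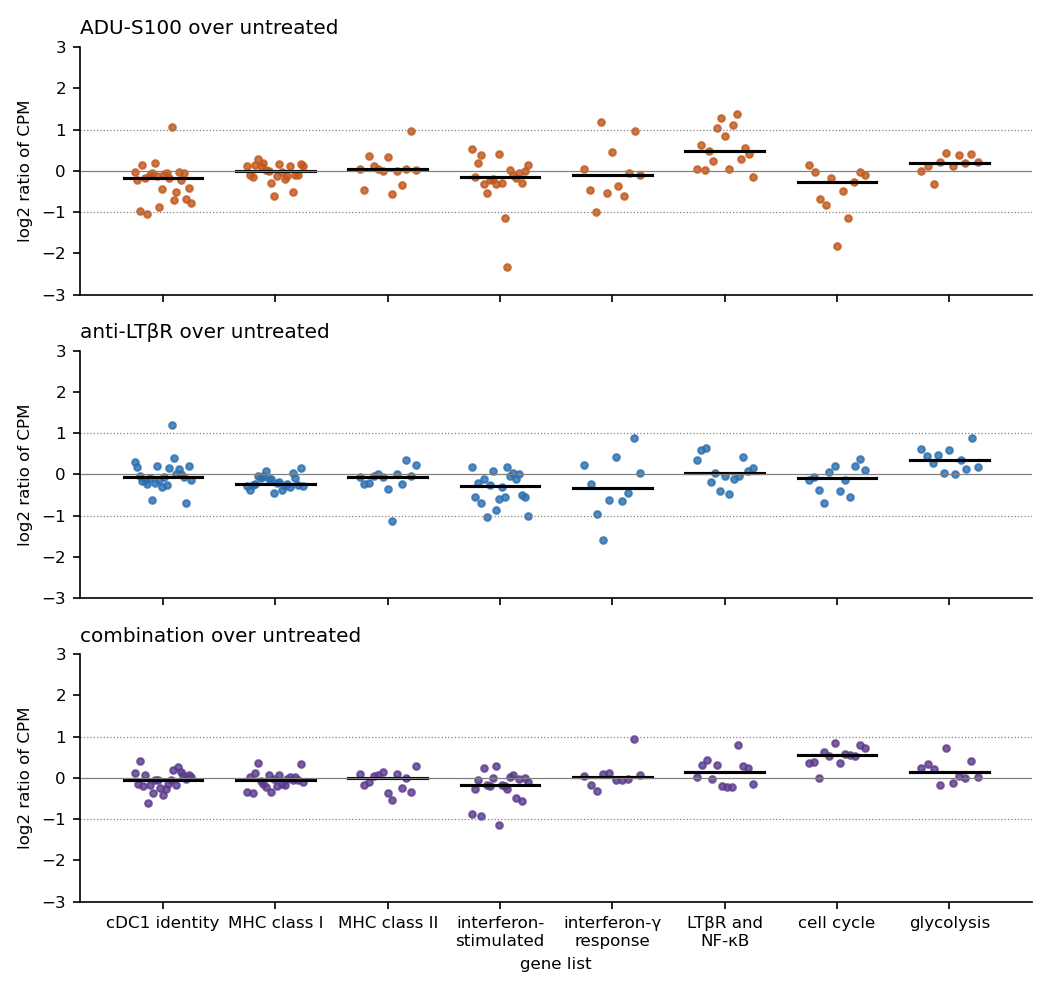
Log2 ratio of CPM of each measured gene in 8 lists, with 1 panel per treated library over the shared untreated cDC1. Each point is a gene, the black line is the list's median, and dotted lines mark a 2-fold difference; the NF-κB list has its median at 0.47 in the ADU-S100 panel and at 0.04 and 0.14 in the others, and the cell cycle list lies above 0 in the combination panel.

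The cDC1 identity genes had medians slightly below 0 on the log2 scale in all 3 comparisons with untreated. Of 24 such genes, 1 was at least 2-fold higher and 1 at least 2-fold lower after ADU-S100, against 1.4% and 1.15% of all measured genes, and 21 were below 0, with a median log2 ratio of -0.17 against -0.01 over all genes. After anti-LTβR, 1 of 24 was higher and 0 lower, against 0.916% and 0.329% of all measured genes (median -0.06). After the combination 0 of 23 were past 2-fold in either direction, against 0.467% higher and 1.43% lower (median -0.04). In the cells with Xcr1 or Tlr3 the 3 medians were -0.06, -0.11 and -0.19, so the combination and not ADU-S100 was lowest there. Nfil3, a transcription factor upstream of the cDC1 lineage, stood at 33.8, 70.6, 77.1 and 58.4 CPM, lowest in the untreated cells, with log2 ratios of 1.06 after ADU-S100 and 1.19 after anti-LTβR and too few UMIs for a ratio in the combination, and the first of these ratios stood at 0.78 and the other at 0.58 when cells with Cd3e, Csf3r or C1qa were let in. In the subset the Nfil3 ratios were 1.54 on 66 UMIs and 1.86 on 96 UMIs. Clnk, an adaptor protein, stood at 112, 54.00, 95.6 and 73.4 CPM and was lowest after ADU-S100 (log2 ratio -1.04, 95% interval -1.60 to -0.55). Cadm1, an adhesion molecule of cDC1, was also lowest after ADU-S100, at 519.8, 266, 504 and 692 CPM, with -0.96 (95% interval -1.20 to -0.74) for ADU-S100 over untreated and 1.38 (95% interval 1.13 to 1.64) for the combination over ADU-S100. Itgae (CD103, the integrin that binds E-cadherin) stood at 735, 399, 673 and 616 CPM, again lowest after ADU-S100 (-0.88, 95% interval -1.07 to -0.70, and -0.72 in the cells with Xcr1 or Tlr3).

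Antigen presentation genes differed by less than 2-fold from untreated, apart from 1. Of 22 measured genes of MHC class I presentation and cross-presentation, 0 were past 2-fold in any of the 3 comparisons with untreated, where 0.329% to 1.43% of all measured genes were past it in a given direction, and the medians were -0.01, -0.22 and -0.05 (-0.01, -0.17 and -0.04 in the subset). B2m (the class I light chain) stood at 2749, 2960.4, 2256 and 2162 CPM and Tap1 (the peptide transporter) at 396, 368, 371 and 404 CPM. Anti-LTβR placed 19 of the 22 below 0, by small amounts, from -0.45 to 0.16. For class II, H2-Aa (an α chain) stood at 7085, 7679, 6897 and 7376 CPM and Cd74 (the invariant chain) at 16696, 17101, 16079 and 17915 CPM, and the medians of 13 genes were 0.03, -0.05 and 0.01 (0.14, -0.01 and 0.03 in the subset). H2-DMb2, a peptide-loading chain, was the 1 of 13 class II genes past 2-fold against untreated (0.329% of all measured genes were lower after anti-LTβR), at 197, 133, 90.2 and 135 CPM and -1.12 (95% interval -1.495 to -0.77) for anti-LTβR, but at -0.99 in the subset and at -0.86 when cells with Cd3e, Csf3r or C1qa were let in. MHC genes share near-identical stretches, so their counts are uncertain between paralogs.

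NF-κB genes stood higher in the ADU-S100 cDC1. Of 15 measured genes of the LTβR and NF-κB list (22 in all), 14 were above 0 and 4 were at least 2-fold higher than untreated, against 1.4% of all measured genes, with 0 lower and a median of 0.47 (0.71 over the 10 that kept 100 UMIs in the cells with Xcr1 or Tlr3). Nfkbia encodes IκBα, the inhibitor that NF-κB itself induces, Tnfaip3 encodes the deubiquitinase A20, Nfkb2 encodes p100/p52 and Relb its dimer partner. Upstream sequences of the most upstream RefSeq start of 3 of the 4 are printed because their promoters are textbook NF-κB targets and the genes differed together. Each is the 250 bases before the start from RefSeq on GRCm38.p6, 5′ to 3′ on the gene's strand, at chr12:55492648-55492897 (minus strand) for Nfkbia, chr10:19015411-19015660 (minus strand) for Tnfaip3 and chr19:46304487-46304736 (plus strand) for Nfkb2, and capitals mark matches to the κB motif GGGNNNTTCC on either strand.
Nfkbia: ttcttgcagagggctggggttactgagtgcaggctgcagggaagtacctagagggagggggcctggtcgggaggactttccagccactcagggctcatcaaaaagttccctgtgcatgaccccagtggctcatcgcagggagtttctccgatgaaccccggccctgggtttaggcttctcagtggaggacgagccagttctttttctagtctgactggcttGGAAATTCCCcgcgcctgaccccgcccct
Tnfaip3: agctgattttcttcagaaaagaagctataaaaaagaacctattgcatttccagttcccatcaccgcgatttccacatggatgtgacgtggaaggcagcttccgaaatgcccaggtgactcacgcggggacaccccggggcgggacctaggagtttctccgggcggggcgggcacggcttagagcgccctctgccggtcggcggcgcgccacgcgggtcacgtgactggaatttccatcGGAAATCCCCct
Nfkb2: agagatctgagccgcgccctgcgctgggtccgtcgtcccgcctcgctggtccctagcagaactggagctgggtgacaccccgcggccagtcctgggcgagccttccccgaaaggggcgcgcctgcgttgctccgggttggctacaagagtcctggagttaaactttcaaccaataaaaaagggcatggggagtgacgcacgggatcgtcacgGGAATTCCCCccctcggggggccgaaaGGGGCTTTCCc
This motif occurred in 1527 of 32851 upstream windows of that length (4.65%) and in those of 220 of 3225 genes measured in the comparison (6.82%). In the list, 6 of the 12 measured genes with an entry had a match, Nfkbia with 1, Tnfaip3 with 1 and Nfkb2 with 2 in the windows shown. The letters of an interferon-stimulated response element, GAAANNGAAA, occurred in 978 of 32851 windows (2.98%) and in none of the 3 printed. A match is a run of letters and not a measured binding site.

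Nfkbia (ENSMUSG00000021025) stood at 135, 324, 138 and 167 CPM in the 4 libraries. ADU-S100 was highest, with an interval of 284 to 368 CPM that lay above those of the other 3, and its log2 ratio to untreated was 1.27 (95% interval 0.99 to 1.54). Tnfaip3 (ENSMUSG00000019850) stood at 41.5, 108, 38.03 and 71.7 CPM, highest after ADU-S100 (1.38, 95% interval 0.89 to 1.88) and next in the combination. Nfkb2 (ENSMUSG00000025225), at 35.7, 73.4, 41.3 and 53.4 CPM, gave 1.04 (95% interval 0.47 to 1.61). Relb (ENSMUSG00000002983), at 49.1, 105, 34.8 and 41.7 CPM, gave 1.10 (95% interval 0.62 to 1.58) for ADU-S100 over untreated and -1.32 (95% interval -2.05 to -0.67) for the combination over ADU-S100, the latter -0.75 when cells with Cd3e, Csf3r or C1qa were let in. Across the alternative settings in which they kept 100 UMIs, the log2 ratios to untreated ranged from 1.10 to 1.60 for Nfkbia, 1.31 to 1.58 for Tnfaip3, 0.68 to 1.07 for Nfkb2 and 0.82 to 1.44 for Relb. Nfkbie, a further IκB gene, was not past 2-fold at 52.3, 94.2, 39.1 and 45.04 CPM (0.85, 95% interval 0.36 to 1.33), but stood at 1.42 in the subset.

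The anti-LTβR and combination cDC1 stood near untreated on the same list. Of 13 genes measured for anti-LTβR, 7 were above 0 and 0 past 2-fold (median 0.04, subset 0.12), and of 12 for the combination, 7 were above 0 and 0 past 2-fold (median 0.14, subset 0.08). Of all measured genes, 0.916% were higher and 0.329% lower after anti-LTβR, and 0.467% and 1.43% after the combination, so counts of 0 are near those shares. Of 9 genes measured for the combination over ADU-S100, 0 were above 0 (median -0.28). Ltbr itself was barely measured in cDC1, at 19.1, 23.5, 14.1 and 18.3 CPM. Map3k14, which encodes the kinase NIK of the noncanonical branch, stood at 149.9, 208, 234 and 204 CPM, lowest in the untreated cells (0.47, 0.64 and 0.44), and Birc3, which encodes the ubiquitin ligase cIAP2, at 121, 187, 183 and 150.1 CPM.

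In the other barcodes, Nfkbia, Tnfaip3, Nfkb2 and Relb were also highest after ADU-S100. Outside cDC1, Nfkbia stood at 645, 2465, 891 and 929 CPM and Tnfaip3 at 385, 799, 448 and 454 CPM, above the levels in cDC1. Relb, at 99.2, 124, 106 and 103 CPM, was also above cDC1 in each library. Nfkb2, at 53.6, 67.4, 62.9 and 63.2 CPM, was above cDC1 in each library but ADU-S100. One cDC1 held 20.9% of the ADU-S100 Nfkbia UMIs. The same list had a median of 0.51 over 15 genes in cDC2 and 0.01 over 15 genes in mature dendritic cells for ADU-S100 over untreated, so cDC2 showed a like value. Macrophage and monocyte markers were highest in the ADU-S100 cDC1 too (869.6 CPM against 298 untreated), and their part in the result was not tested.

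**Figure D4:**
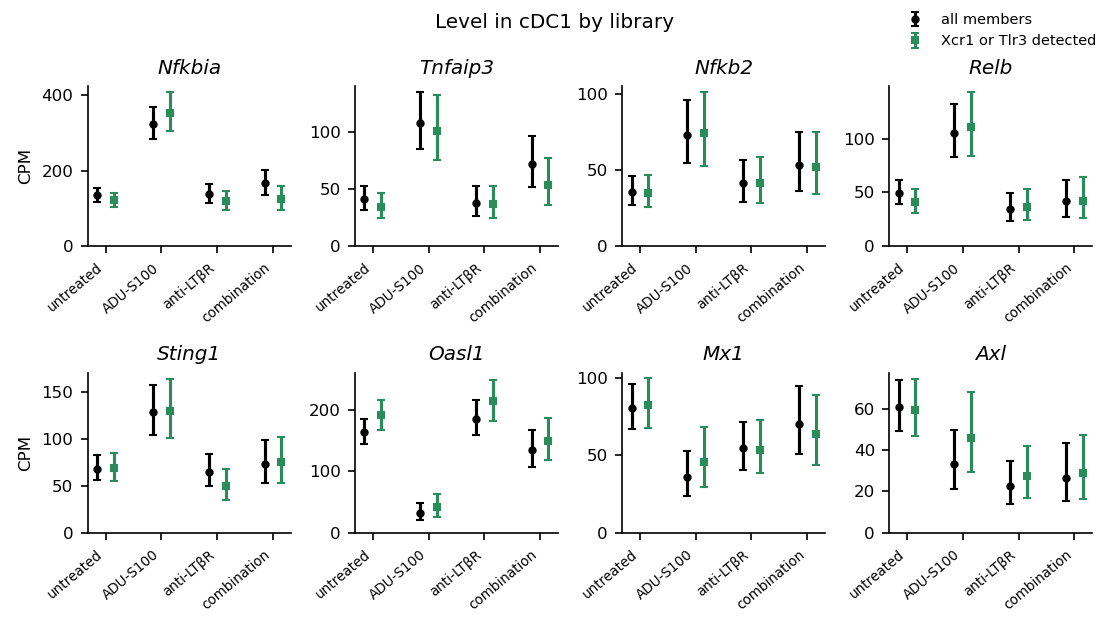
Level of 8 genes in cDC1 (CPM, vertical axes) by library, for all cDC1 (black) and for those with Xcr1 or Tlr3 (green). Bars are exact Poisson 95% intervals covering counting error only; Nfkbia, Tnfaip3, Nfkb2, Relb and Sting1 are highest and Oasl1 lowest in the ADU-S100 library.

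Sting1 (ENSMUSG00000024349), the target of ADU-S100, stood at 68.2, 129, 65.2 and 73.4 CPM, highest after ADU-S100 (0.92, 95% interval 0.50 to 1.33, short of 2-fold, and 0.36 when cells with Cd3e, Csf3r or C1qa were let in), and at 75.96, 55.9, 68.7 and 66.6 CPM in the other barcodes, where ADU-S100 was lowest. Of the STING and nucleic acid sensing list, 11, 11 and 10 genes were measured in the 3 comparisons, and 0 were past 2-fold. Of all measured genes, 0.329% to 1.43% were past it in a given direction. The list's medians were -0.15, -0.06 and -0.11 (-0.17, -0.18 and -0.13 in the subset). Ifnb1, the type I interferon gene, had no UMI in any cDC1: 0 of 146, 0 of 62, 0 of 105 and 0 of 94 allow shares of cells with a UMI of up to 2.05%, 4.84%, 2.86% and 3.19%.

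Most genes of a list of interferon-stimulated genes stood below untreated in each of the 3 comparisons that share that control. Of 20 measured genes of this list, 7, 5 and 4 were above 0. At least 2-fold higher were 0 in each of the 3, against 1.4%, 0.916% and 0.467% of all measured genes. Ifitm1, an interferon-induced gene outside this list, was higher after ADU-S100 (1.84, and 2.07 in the subset). At least 2-fold lower were 2, 2 and 1, against 1.15%, 0.329% and 1.43% of all measured genes, with list medians of -0.16, -0.28 and -0.17 (-0.20, -0.37 and -0.18 in the subset). Oasl1 (ENSMUSG00000041827), an interferon-induced OAS-like gene, stood at 163, 31.8, 186 and 135 CPM. It was lowest after ADU-S100, with a log2 ratio of -2.33 (95% interval -3.04 to -1.74) to untreated, while the combination exceeded ADU-S100 (2.06, 95% interval 1.40 to 2.82). Oasl1 stood at 66.2, 91.9, 78.3 and 67.98 CPM in the other barcodes. Where cells with Cd3e, Csf3r or C1qa were also let in, the Oasl1 ratio to untreated was -0.81 and that of the combination to ADU-S100 0.91. Mx1, a GTPase against RNA viruses, stood at 80.4, 36.00, 54.3 and 70.1 CPM (-1.14, 95% interval -1.83 to -0.54 after ADU-S100, -0.82 in the cells with Xcr1 or Tlr3 and -0.54 with the other cells let in).

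Other interferon-stimulated genes differed by library. Zbp1, a sensor of Z-form nucleic acid, was lowest after anti-LTβR at 112, 122, 55.4 and 103 CPM (log2 ratio with a 95% interval of -1.49 to -0.55, at the 2-fold limit). Its ratio was -0.90 in the subset and -0.48 when cells with Cd3e, Csf3r or C1qa were let in. Ifit2, which binds viral RNA, stood at 56.8, 38.8, 27.2 and 50.04 CPM, also lowest after anti-LTβR (-1.04, 95% interval -1.77 to -0.41, and -0.30 with per-cell averages and just short of 2-fold in the subset). Isg15, a ubiquitin-like modifier, stood at 208, 166, 114 and 255 CPM, lower after anti-LTβR than in the combination (1.16, 95% interval 0.79 to 1.53), but its ratio was 0.24 when cells with Cd3e, Csf3r or C1qa were let in. Ly6a (Sca-1) stood at 479, 637, 317 and 215 CPM and was lowest in the combination (-1.15, 95% interval -1.44 to -0.88, -0.97 with those cells let in and -0.98 in the subset). In cDC2 the medians of the interferon-stimulated list were -0.35, -0.55 and -0.66, and in mature dendritic cells 0.07, 0.03 and 0.25.

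The interferon-γ response list gave medians of -0.10, -0.34 and 0.01 (-0.03, -0.35 and -0.01 in the subset) over 11, 10 and 10 measured genes. Gbp2, an interferon-inducible GTPase, stood at 59.9, 136, 19.6 and 63.4 CPM, but 57.1% of its ADU-S100 UMIs lay in 1 cell, so most of the ADU-S100 value came from 1 cell. After anti-LTβR it was lowest (-1.58, 95% interval -2.43 to -0.88, and -0.29 with cells holding Cd3e, Csf3r or C1qa let in), and its family shares near-identical copies. Socs3, a feedback inhibitor of cytokine signaling, stood at 119, 234, 218 and 229 CPM and was lowest in the untreated cells (0.97, 0.87 and 0.94 against the same control, each short of 2-fold, but 1.05, 1.19 and 1.44 in the subset). Ifngr1, the ligand-binding chain of the interferon-γ receptor, stood at 174, 269, 319 and 272 CPM, also lowest in the untreated cells (0.63, 0.88 and 0.64, and 1.03 for anti-LTβR in the subset).

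Costimulatory and inhibitory ligands were mostly level. The list had 11, 10 and 8 measured genes and medians of 0.04, -0.05 and -0.04 (0.23, -0.08 and 0.05 in the subset). Cd86, a CD28 ligand, stood at 664, 637, 523 and 580.5 CPM, Cd80, its relative, at 109.7, 145, 136 and 135 CPM, and Cd274 (PD-L1) at 266, 273, 309 and 275 CPM. None of these 3 was past 2-fold in any comparison with untreated. Pvr (CD155, a ligand of DNAM-1 and TIGIT) stood at 38.9, 84.5, 82.6 and 46.7 CPM and was the 1 gene of the list past 2-fold against untreated (1.4% of all measured genes were higher after ADU-S100 and 0.916% after anti-LTβR), at 1.12 (95% interval 0.58 to 1.65) after ADU-S100 and 1.08 (95% interval 0.58 to 1.60) after anti-LTβR, though at 0.75 and 0.84 when cells with Cd3e, Csf3r or C1qa were let in. Cd40, the receptor for T cell help, stood at 44.01, 44.3, 21.7 and 25.02 CPM, under the minimum count in some comparisons.

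Most listed cytokine transcripts were scarce, but Il1b was not: it was detected in 55.5%, 66.1%, 63.8% and 52.1% of cDC1. Il12b, the p40 subunit of IL-12, had 48.5, 20.8, 11.95 and 21.7 CPM in cDC1, against 1207, 1024, 624 and 1019 CPM in mature dendritic cells. UMIs of Il12b were found in 8, 4, 3 and 2 cDC1. Of 16 cytokine genes, 2 had enough UMIs to be measured in comparisons with untreated, Il1b and Tgfb1. Il1b stood at 974, 1835, 1202 and 696 CPM in cDC1 (0.91, 95% interval 0.81 to 1.02 after ADU-S100, but 1.36 in the subset, 1.32 when cells with Cd3e, Csf3r or C1qa were let in and 1.04 with 3 markers required), while other barcodes stood at 2797, 9662, 4269 and 4568 CPM, also highest after ADU-S100. The part of RNA from other cells in the Il1b value was not tested.

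Of 14 chemokine genes, 6, 6 and 5 were measured in the 3 comparisons with untreated. Cxcl9, which attracts CXCR3+ T cells, stood at 224, 112, 114 and 178 CPM, with 56.8% of the ADU-S100 UMIs in 1 cell. In the subset Cxcl9 stood at 264, 151, 136 and 123 CPM, lowest in the combination, whose ratio to untreated was -0.33 in all cDC1 and -1.09 in the subset. Ccl4, a chemokine of activated myeloid cells and lymphocytes, stood at 472, 732, 443 and 669 CPM and at 772, 1891, 728 and 683 CPM in the other barcodes. Ccl17, a CCR4 ligand, was highest in the combination at 61.9, 42.9, 52.2 and 165 CPM (1.42, 95% interval 0.998 to 1.84), a ratio of 0.58 when cells with Cd3e, Csf3r or C1qa were let in and 2.15 in the cells with Xcr1 or Tlr3, and Cxcl2, a neutrophil attractant, was lowest there at 188, 287, 168 and 18.3 CPM. Of the untreated Cxcl2 UMIs, 78.6% lay in 1 cell, and the log2 ratio of -3.30 became -0.07 under the same change. The list's medians were 0.25, -0.12 and -0.30 (0.58, -0.25 and -0.27 in the subset).

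Of the genes for uptake of dead cells and antigen, 1 of 9 was at least 2-fold higher and 0 lower after ADU-S100, against 1.4% and 1.15% of all measured genes, with 8 of 9 below 0. After anti-LTβR 1 of 10 was higher and 1 lower, against 0.916% and 0.329%, and after the combination 0 of 10 were higher and 2 lower, against 0.467% and 1.43%. Timd4 (TIM-4, a phosphatidylserine receptor) stood at 51.02, 173, 113 and 83.4 CPM in cDC1 and at 5.73, 9.05, 6.42 and 6.36 CPM in the other barcodes. It was lowest in the untreated cells, at 1.76 (95% interval 1.35 to 2.19) after ADU-S100 and 1.15 (95% interval 0.71 to 1.59) after anti-LTβR (0.88 with per-cell averages), and Timd4 stayed between 1.53 and 1.90 for ADU-S100 under the alternatives that left it 100 UMIs, which thinning did not. Axl, a receptor tyrosine kinase that binds apoptotic cells through GAS6, stood at 60.6, 33.2, 22.8 and 26.7 CPM, highest in the untreated cells, with -1.38 (95% interval -2.17 to -0.72) after anti-LTβR and -1.15 (95% interval -2.05 to -0.41) after the combination. Those Axl values were -0.47 and -0.44 when cells with Cd3e, Csf3r or C1qa were let in. Cd300lf, an inhibitory lipid receptor, stood at 89.9, 45.7, 88.02 and 38.4 CPM, with -1.20 for the combination over untreated. That ratio was short of 2-fold in the subset (-0.76) and with cells holding Cd3e, Csf3r or C1qa let in (-0.63). The list's medians for uptake were -0.30, -0.09 and -0.13 (-0.27, 0.05 and -0.20 in the subset).

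Among homing and growth factor receptors, the genes past 2-fold against untreated included Cxcr4 and Il7r. Cxcr4 (the CXCL12 receptor) was past 2-fold after ADU-S100, at 91.4 against 25.5 CPM (1.83, 95% interval 1.25 to 2.45, and 1.81 on 66 UMIs in the cells with Xcr1 or Tlr3). Ccr2, the receptor of monocyte-attracting chemokines, stood at 118, 151, 199.9 and 165 CPM and Itgb7, an integrin β chain of gut homing, at 145, 189.7, 199.9 and 244 CPM, each lowest in the untreated cells. Il7r was past 2-fold lower in the combination (-2.18, 95% interval -3.34 to -1.32), at 79.1, 81.7, 60.9 and 16.7 CPM over all cDC1 and 6.26, 3.81, 9.13 and 7.68 CPM in those with Xcr1 or Tlr3, and its ratio was -0.73 when cells with Cd3e, Csf3r or C1qa were let in. The 15, 14 and 14 measured growth factor receptor genes had medians of 0.26, 0.05 and -0.26, and of 0.12, 0.04 and 0.08 in the cells with Xcr1 or Tlr3, where the combination value turned.

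Cell cycle genes stood above untreated in the combination cDC1. Of 12 measured genes, 12 were above 0 in the combination over untreated, with a median of 0.55 (0.49 in the cells with Xcr1 or Tlr3) and 0 past 2-fold (0.467% of all measured genes were higher). After ADU-S100 1 of 11 was above 0 and 2 were at least 2-fold lower, against 1.15% of all measured genes (median -0.27, and -0.01 in the cells with Xcr1 or Tlr3), and after anti-LTβR 5 of 12 were above 0 (median -0.09, subset -0.04). In cDC2 the median for the combination over untreated was 0.30 with 5 of 6 genes above 0, and in mature dendritic cells 0.37 with 5 of 6. For the combination over ADU-S100, 7 of 7 were above 0 and 3 at least 2-fold higher, against 1.11% of all measured genes. Of these, Mki67 (1.03) stood at 0.59 in the subset, 0.92 with cells holding Cd3e, Csf3r or C1qa let in and 0.33 with 3 markers. Pcna (1.06) stood at 0.72 with those cells let in and 0.69 with 3 markers, and Stmn1 (1.71) at 0.85 with per-cell averages. The list's median there was 0.82, and 0.23 with 3 markers. Mki67 (the proliferation antigen Ki-67) stood at 163, 143, 187 and 292 CPM (0.85, 95% interval 0.56 to 1.13 for the combination over untreated). Stmn1 (stathmin, a microtubule regulator) stood at 106, 47.1, 71.7 and 155 CPM, lowest after ADU-S100 (-1.15, 95% interval -1.75 to -0.63, but -0.18 with per-cell averages). Pclaf, a PCNA-binding factor, stood at 84.8, 23.5, 64.1 and 108 CPM (-1.81, 95% interval -2.67 to -1.12, and -0.96 when cells with Cd3e, Csf3r or C1qa were let in).

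The share of cycling cDC1, those with at least 3 of 13 mitotic genes detected, did not separate the libraries. It was 19.2% (28 of 146, 95% interval 13.1 to 26.5), 12.9% (8 of 62, 5.74 to 23.9), 15.2% (16 of 105, 8.97 to 23.6) and 22.3% (21 of 94, 14.4 to 32.1), with all intervals overlapping. Thinned to 2000 UMIs it was 10.5%, 6.78%, 13.1% and 13.8%, and in the cells with Xcr1 or Tlr3 it was 24.8%, 21.1%, 18.2% and 22.1%. In cDC2 the share was 6.45%, 1.37%, 5.56% and 6.29%, and in mature dendritic cells 3.77%, 1.68%, 1.64% and 4.00%, below the cDC1 of the same library in all 4.

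**Figure D5:**
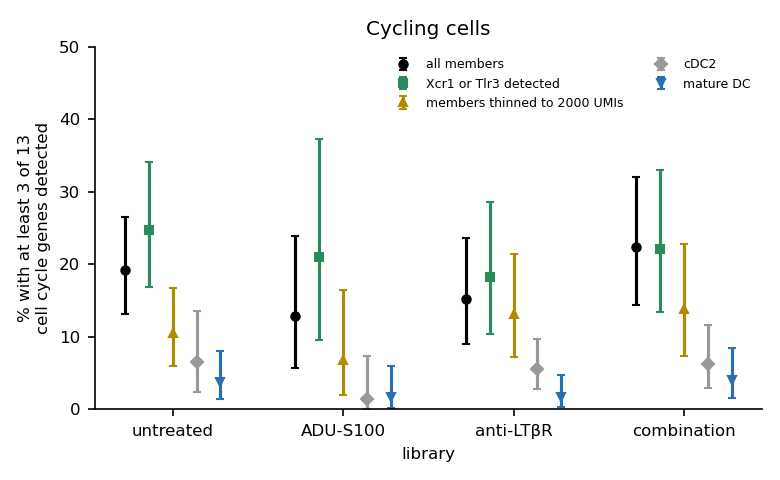
Percentage of cells with at least 3 of 13 mitotic genes detected, by library, for all cDC1, for cDC1 with Xcr1 or Tlr3, for cDC1 thinned to 2000 UMIs, for cDC2 and for mature dendritic cells. Bars are 95% Clopper-Pearson intervals covering counting error only; the cDC1 intervals of the 4 libraries overlap, from 12.9% after ADU-S100 to 22.3% in the combination.

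Metabolic and stress lists differed by small amounts. The glycolysis and hypoxia list had 9 of 10, 11 of 11 and 7 of 10 genes above 0, with medians of 0.20, 0.36 and 0.14 (0.29, 0.34 and 0.08 in the subset). Ldha, which reduces pyruvate to lactate, stood at 717, 835, 732 and 641 CPM. Dissociation and stress genes had medians of -0.01, 0.20 and 0.26 (0.07, 0.17 and 0.21 in the subset), and lipid and cholesterol genes -0.14, -0.18 and -0.25 (-0.17, -0.29 and -0.43 in the subset), with 7, 7 and 6 measured.

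The largest single-gene differences that met fixed detection limits are given next, each as the level in the first library against the second and the log2 ratio. For ADU-S100 over untreated, the highest included Ifitm1 (an interferon-induced membrane protein, 1858 against 517 CPM, 1.84), Cxcr4 (described above), Timd4 (described above), Emilin2 (a matrix glycoprotein, 85.8 against 25.5 CPM, 1.74) and Cdkn1a (the cell cycle inhibitor p21, 294 against 108 CPM, 1.44). The 6 lowest were Oasl1 and Pclaf, given above, and Diaph3 (a formin of cytokinesis, 22.2 against 86.1 CPM, -1.92), Airn (a noncoding RNA antisense to Igf2r, 19.4 against 70.8 CPM, -1.82), Serpina3g (a serpin of a family with close copies, 29.1 against 102 CPM, -1.78) and Rtl8c (20.8 against 62.5 CPM, -1.55). All those named kept their direction in the cells with Xcr1 or Tlr3, Cxcr4 and Emilin2 on only 66 and 55 UMIs, with Ifitm1 at 2.07 and Diaph3 at -1.92. When each cell's CPM was averaged, Rtl8c stood at -0.19.

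For anti-LTβR over untreated, the highest were Nlgn1 (neuroligin, a synaptic adhesion molecule, 343 against 66.3 CPM, 2.37), Abca13 (a lipid transporter of the ABC family, 611 against 148 CPM, 2.04), P3h2 (a collagen prolyl hydroxylase, 99.97 against 25.5 CPM, 1.96), Fgfr1 (a fibroblast growth factor receptor, 76.1 against 24.2 CPM, 1.64), Cd81 (a tetraspanin, 96.7 against 32.5 CPM, 1.57) and Rilpl2 (104 against 41.5 CPM, 1.33). Per UMI, Nlgn1 and Abca13 were higher in cDC1 than in the other barcodes of each library: Nlgn1 stood at 66.3, 26.3, 343 and 127 CPM in cDC1, 1.48, 0.0680, 1.49 and 0.201 CPM in the other barcodes and 0 in cDC2 and pDC of all 4 libraries, and Abca13 at 148, 56.8, 611 and 224 CPM against 2.45, 6.99, 8.10 and 4.17 CPM in the other barcodes. The ADU-S100 Nlgn1 UMIs all lay in 1 cell. Lowest were Fgf13 (28.3 against 115 CPM, -2.01), Slfn1 (a Schlafen gene, 22.8 against 93.1 CPM, -2.00), Ms4a4c (24.99 against 81.6 CPM, -1.68), Ifi47 (an interferon-γ-induced GTPase, 24.99 against 66.3 CPM, -1.38), and Gbp2 and Axl, given above. In the cells with Xcr1 or Tlr3 all 12 kept their direction, but 6 of them had under 100 UMIs there, Ms4a4c 52, Rilpl2 66, Fgfr1 70, Gbp2 75, Ifi47 84 and Axl 97. Ms4a4c stood at -0.41 there (95% interval -1.38 to 0.45) and Gbp2 at -0.90. When cells with Cd3e, Csf3r or C1qa were let in, Cd81 (0.11), Fgf13 (-0.61), Slfn1 (-0.97), Ms4a4c (-0.72) and Ifi47 (-0.57) were also short of 2-fold.

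For the combination over untreated, the highest were Lmna (lamin A/C of the nuclear lamina, 168 against 29.97 CPM, 2.48), Cd81 (91.7 against 32.5 CPM, 1.49), Tgfbi (a TGFβ-induced matrix protein, 297 against 112 CPM, 1.41), S100a10 (a partner of annexin A2, 249 against 103 CPM, 1.27), Ppp1r15a (GADD34, of the stress response, 88.4 against 36.99 CPM, 1.26) and Mt1 (metallothionein, 312 against 138 CPM, 1.18). All 6 kept their direction with Xcr1 or Tlr3 required, Cd81 and Ppp1r15a on 99 and 97 UMIs (Lmna 2.16, Mt1 1.35). When cells with Cd3e, Csf3r or C1qa were let in, Cd81 stood at -0.02, Tgfbi at 0.03, S100a10 at 0.74, Ppp1r15a at 0.75 and Mt1 at 0.85, all short of 2-fold, and Lmna at 1.88. The lowest included Mctp2 (18.3 against 254 CPM, -3.73), Cacna1e (a calcium channel, 20.02 against 149 CPM, -2.84), Lair1 (an inhibitory collagen receptor, 11.7 against 73.98 CPM, -2.57), Blnk (a B cell and pDC adaptor, 18.3 against 92.5 CPM, -2.27) and Slamf9 (13.3 against 66.97 CPM, -2.25). In the cells with Xcr1 or Tlr3, Mctp2 had 0 UMIs in both libraries and so gave no ratio, and Cacna1e, Lair1 and Blnk had 7, 12 and 6 UMIs in the pair, too few for a ratio, while Slamf9 stood at -1.49 on 66 UMIs. The combination held 1 Siglech+ cell without Xcr1 or Tlr3, against 16 untreated.

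Against the single agents, Mctp2, Lair1 and Cacna1e were again among the lowest genes of the combination. Over ADU-S100 the lowest included Mctp2 (-4.47), Lair1 (-3.46), Blnk (-3.14), Cacna1e (-2.59) and Rftn1 (a lipid raft protein, 53.4 against 307 CPM, -2.51). In the cells with Xcr1 or Tlr3, Mctp2, Lair1, Blnk and Cacna1e had 2, 9, 1 and 9 UMIs in that pair, too few for a ratio, and Rftn1, on 58 UMIs, stood at -0.69 (95% interval -1.54 to 0.10), short of 2-fold. Over anti-LTβR the lowest included Mctp2 (-4.02), Lair1 (-3.29), Cacna1e (-2.96), Prkca (protein kinase Cα, 35.03 against 192 CPM, -2.43) and Ctsl (cathepsin L, 21.7 against 117 CPM, -2.39). In the cells with Xcr1 or Tlr3 those 5 genes had 0, 16, 10, 5 and 19 UMIs in the pair, too few for a ratio. Ctsl stood at -0.73, short of 2-fold, when cells with Cd3e, Csf3r or C1qa were let in. Higher than ADU-S100 were Oasl1 and Stmn1, given above, Abca13 (224 against 56.8 CPM, 1.97), Lmna (168 against 42.9 CPM, 1.96), Frmd4b (215 against 69.2 CPM, 1.63) and Tmtc2 (185 against 63.7 CPM, 1.53), of which Frmd4b and Tmtc2 stood at 0.80 and 0.77 when cells with Cd3e, Csf3r or C1qa were let in. Higher than anti-LTβR were Diaph3 (128 against 45.6 CPM, 1.49), Stmn1 (155 against 71.7 CPM, 1.11) and Atad2 (a chromatin ATPase, 102 against 49.98 CPM, 1.02), followed by Taf1d (108 against 54.3 CPM, 0.99), Erc1 (102 against 52.2 CPM, 0.96) and Iscu (an iron-sulfur scaffold, 96.7 against 49.98 CPM, 0.95), which were short of 2-fold (Erc1 stood at 1.10 in the subset, on 96 UMIs). Stmn1 and Atad2 over anti-LTβR were short of it too in the cells with Xcr1 or Tlr3, at 0.88 and, on 97 UMIs, 0.76. With cells holding Cd3e, Csf3r or C1qa let in, these ratios were 0.72 and 0.87.

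Ligands that other cells make for cDC1 were summed over all barcodes within the limits. Xcl1, the XCR1 ligand, stood at 50.9, 24.04, 44.7 and 26.9 CPM, Flt3l at 14.6, 9.14, 16.7 and 10.3 CPM and Ifng at 29.6, 11.2, 21.1 and 17.2 CPM. All 3 were lowest after ADU-S100, whereas Ccl4 was highest there at 762, 1879, 724 and 682 CPM. Ccl5, a T cell chemokine, stood at 645, 321, 433 and 386 CPM, Csf2 (GM-CSF) at 2.76, 1.72, 2.97 and 1.73 CPM and Cd40lg at 4.42, 2.20, 5.92 and 2.63 CPM. These values are sums per total CD45+ RNA, which do not separate fewer ligand-producing cells from less RNA per cell. Barcodes holding each ligand were not counted.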

How the data were processed

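Raw counts per gene and barcode were deposited by the authors for 4 libraries as filtered 10x matrices over 33696 features. The submitters' notes name Cell Ranger 7.1.0 and mm10, the matrix headers 8.0.1, and the labels a GEM-X 5′ kit version 3. Barcodes with 300 to 5000 genes and at most 6% mitochondrial UMIs were kept, and cDC1 were selected on Xcr1, Clec9a, Tlr3 and Flt3 as stated above. The members and gene lists were chosen with earlier results of these data known. UMIs were summed over members and scaled to CPM with exact Poisson 95% intervals. Log2 ratios had 0.5 UMI added and exact binomial intervals, and needed 100 UMIs in the pair of libraries (not in the cells with Xcr1 or Tlr3, where UMIs below that are stated). Shares had Clopper-Pearson intervals and their ratios log-normal ones. Named genes were the 6 highest and 6 lowest ratios per comparison, detected in at least 10% of members of the higher library with at most 20% of UMIs in 1 cell, without immunoglobulin, ribosomal, mitochondrial, sex-linked, predicted, rule and other-lineage marker genes. Some items that this rule selects are not reported here.

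No test was made, since each group had 1 library. Doublets are not mentioned in the sources used here. Scrublet's automatic threshold marked 0, 0, 1 and 0 barcodes, too few to rely on, and removing the highest scores (0.4% per 1000 barcodes, which took 1, 1, 5 and 2 cDC1) was an alternative. The other alternatives were 3 markers in place of 2, no genes required at 0, thinning to 2000 UMIs, TMM (edgeR 4.0.16) and median-of-ratios (DESeq2 1.42.0) scaling, means of per-cell CPM, minimums of 50 and of no UMIs, and 1 UMI added. Requiring Xcr1 or Tlr3 and leaving out the ADU-S100 cell with most neutrophil UMIs were added after seeing the data. Scripts ran in Python 3.11.15 with scanpy 1.11.5, scipy 1.17.1 and pandas 2.3.3.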

Additional observations from a re-analysis of the deposited data

How the results depend on the processing

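No paired analysis was possible because each group had 1 library, and for the same reason no replicate could be left out. With barcodes holding Csf3r left out, the cDC1 share ratio was 0.348 for ADU-S100 over untreated and turned to 0.862 for the combination over ADU-S100. Thinned to 2000 UMIs, it was 0.524 for the combination over untreated (0.875 among dendritic cells), 2.25 over ADU-S100 and 1.17 over anti-LTβR, and the cycling share was 10.5% untreated and 13.8% in the combination. With Xcr1 or Tlr3 required, the combination stood at 1.40 times the ADU-S100 share among dendritic cells. The cause was not tested for these or the following values.

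Counts of genes at least 2-fold higher or lower followed the minimum and the depth. Without a minimum, the higher and lower counts were 1866 and 1555 for ADU-S100 over untreated, 1758 and 1109 for anti-LTβR over untreated, 2134 and 1104 for the combination over untreated, 2600 and 2027 over ADU-S100, and 2031 and 1252 over anti-LTβR. With a minimum of 50 UMIs they were 110 and 146, 89 and 61, 68 and 124, 95 and 133, and 42 and 104. Thinned to 2000 UMIs, where fewer genes reached the minimum, they were 10 and 17, 2 and 3, 5 and 27, 7 and 18, and 1 and 10. With means of per-cell CPM the lower counts were 104, 44, 128, 110 and 68, and the higher counts moved to 29 for the combination over untreated and 13 over anti-LTβR. With no genes required at 0, ADU-S100 over untreated had 130 higher, the combination over untreated 31 higher, and the combination over ADU-S100 115 lower. With at least 3 markers, the combination had 9 lower than untreated, 15 higher and 15 lower than ADU-S100, and 3 higher and 10 lower than anti-LTβR. With Xcr1 or Tlr3 required, it had 12 lower than untreated, 15 lower than ADU-S100, and 4 higher and 10 lower than anti-LTβR.

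List medians that moved were chemokines for the combination over untreated (-0.30 with the settings of the report, 0.35 with no minimum) and over anti-LTβR (0.59 with those settings, -0.24 with 3 markers, -0.39 with no genes required at 0, -0.14 with Xcr1 or Tlr3), homing genes over ADU-S100 (0.07 with those settings, -0.93 with no genes required at 0, -0.90 with no minimum), interferon-γ response genes over anti-LTβR (0.07, then 0.69 with no minimum) and cell cycle genes over ADU-S100 (0.82, then 0.23 with 3 markers). With no genes required at 0, Cd81 for the combination over untreated stood at -0.0204. Bst2 for the combination over anti-LTβR turned to 0.36 with 3 markers and 0.31 with Xcr1 or Tlr3. Depth limits genes under about 100 UMIs in these 62 to 146 cells, and named genes without a value under an alternative had too few UMIs there.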
